A study of Mus musculus with 5 samples.

Results

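Nodal, its relatives Gdf3 and the activins, the inhibitors that restrain them, and the receptors and transcription factor that carry their signal were followed in undifferentiated mouse embryonic stem cells. The 10 genes were Nodal, Gdf3, Inhba, Inhbb, Lefty1, Lefty2, Fst, Acvr1b, Acvr2b and Foxh1, listed by function. All 10 were measured, each by a single array feature that the platform annotation assigns to that gene alone, out of 19938 named genes tested. Samples were 3 cultures labelled Mkl2-/- and 2 labelled wild type, both of strain C57BL/6 and described in the design text as independent. All cultures grew on gelatin with a feeder layer of mouse embryonic fibroblasts, in serum with leukaemia inhibitory factor, and feeders were depleted before lysis by letting them attach. Mkl2, now named Mrtfb, encodes a myocardin-related partner of serum response factor, and the series asks how its loss bears on TGF-beta signalling. The sources used here do not state how the allele was made or whether each genotype is 1 line or several, and p-values measure only the spread between cultures.

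Nodal and the activins are ligands of the TGF-beta superfamily. They bind pairs of type I and type II serine/threonine kinase receptors, which phosphorylate SMAD2 and SMAD3; these join SMAD4 and act on DNA with partners such as FOXH1. Lefty proteins block Nodal at its receptors and follistatin traps activins, and in the mouse embryo Nodal, Lefty1 and Lefty2 are themselves induced by the pathway. In cultured embryonic stem cells Nodal, both Lefty genes and the co-receptor gene Tdgf1 are commonly expressed in the undifferentiated state.

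Values are log2 expression as deposited, and differences are Mkl2-/- minus wild type, tested with limma over all genes with a threshold of 0.05 for the Benjamini-Hochberg adjusted p. A background level of 7.30 was set from olfactory receptor genes. Replicate arrays correlated at 0.998 to 0.999 within groups and at 0.992 to 0.994 between groups (Pearson's r across genes, which are not independent replicates). The targeted gene, annotated as Mrtfb, had 3 features, and the brightest stood for it. This feature read 9.32, 9.32 and 9.09 in Mkl2-/- cells and 9.80 and 9.75 in wild type (-0.53 ± 0.09, SE; limma adjusted p = 0.048). The other features are not shown here. The sources do not state whether the features of Mrtfb lie in the deleted part. The stem cell markers Pou5f1 and Sox2 were high in both groups. Pou5f1 averaged 12.53 in Mkl2-/- and 12.50 in wild-type cells, and Sox2 averaged 11.89 in Mkl2-/- and 11.82 in wild-type cells. Others differed: Fgf4 (0.67), Dppa5a (0.49) and Utf1 (0.39) rose, while Tfcp2l1 (-0.67) and Nanog (-1.14) fell. The remaining listed stem cell markers did not pass. Because these are bulk samples, fewer cells of a type and less RNA per cell cannot be told apart.

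The DNA just upstream of the ligand genes is shown for Nodal, which passed the test, and for the activin subunit genes Inhba and Inhbb, which did not. Each run is 250 bases before the RefSeq start, 5′ to 3′ on the gene's strand, build GRCm38.p6: chr10:61417722-61417971 (+) for Nodal, chr13:16011601-16011850 (+) for Inhba and chr1:119422249-119422498 (-) for Inhbb. Capitals mark a CCAAT box in Nodal and a TATA box in Inhba; Inhbb held no match.
Nodal: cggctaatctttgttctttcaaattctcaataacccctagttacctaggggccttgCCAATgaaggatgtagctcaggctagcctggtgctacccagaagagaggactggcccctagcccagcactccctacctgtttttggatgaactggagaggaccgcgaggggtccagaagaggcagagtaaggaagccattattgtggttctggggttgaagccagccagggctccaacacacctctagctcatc
Inhba: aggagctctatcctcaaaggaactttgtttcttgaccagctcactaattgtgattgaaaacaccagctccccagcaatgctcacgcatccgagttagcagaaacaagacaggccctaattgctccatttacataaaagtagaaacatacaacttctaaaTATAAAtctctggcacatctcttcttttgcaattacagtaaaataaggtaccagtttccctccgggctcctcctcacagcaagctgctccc
Inhbb: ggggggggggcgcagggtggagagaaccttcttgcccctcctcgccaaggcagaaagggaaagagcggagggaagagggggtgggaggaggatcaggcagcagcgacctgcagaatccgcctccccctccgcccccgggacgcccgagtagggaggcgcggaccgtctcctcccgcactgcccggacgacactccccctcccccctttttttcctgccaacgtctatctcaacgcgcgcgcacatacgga
Both strands were searched for 5 motifs, which do not overlap in these windows: the FOXH1 sites AATCCACA and AATACACA, the SMAD box CAGAC, the CArG box bound by serum response factor, CCAAT and TATAAA. The Nodal window held CCAAT once, 194 bases before the start, a motif present in 33.8% of the 32851 promoter windows of the table. The Inhba window held TATAAA once, 91 bases before the start, as did 12.4% of windows at some position. None of the 3 printed windows held a FOXH1 site (1.61% of all windows), a SMAD box (42.2%) or a CArG box (1.47%). Promoter windows were available for 5 of the 10 genes. Of those not printed, Acvr2b had 1 SMAD box, 233 bases before its start, and Acvr1b had no match to any of the 5 motifs. Lefty1, Lefty2, Gdf3, Foxh1 and Fst had no promoter window and were not searched.

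Among the ligands, Nodal fell and the others did not pass the test. Nodal (feature 10363481, chromosome 10) read 10.61, 10.78 and 10.69 on the Mkl2-/- arrays and 11.14 and 11.17 on the wild-type arrays. All Mkl2-/- arrays lay below both wild-type arrays, and Mkl2-/- replicate 1 was the lowest. Nodal was 1.38-fold lower in Mkl2-/- cells (-0.46 ± 0.06, SE; 95% interval -0.62 to -0.30; limma adjusted p = 0.0265). Gdf3, a Nodal-like ligand expressed in pluripotent cells (feature 10547633, chromosome 6), read 10.67, 10.67 and 10.62 in Mkl2-/- and 10.67 and 10.67 in wild type. Its groups overlapped, and the interval of the difference ran from -0.08 to 0.04 (limma adjusted p = 0.617). Most arrays held an identical value, so this narrow interval may understate the uncertainty. The SE was 0.021, and 0.031 with genes without spread within groups left out.

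The activin beta subunit genes were dim, between 7.78 and 8.41 on all arrays, though above the background level. Inhba, the activin A subunit (feature 10403743, chromosome 13), read 8.12, 7.90 and 8.13 in Mkl2-/- and 8.20 and 8.41 in wild type. The groups did not overlap, but the range of values within each group was wider than the gap between the groups, and the interval of -0.56 to 0.05 was the widest of the 10 genes (difference -0.26 ± 0.11, SE; limma adjusted p = 0.302). Inhbb, the activin B subunit (feature 10357155, chromosome 1), read 7.78, 7.78 and 7.82 in Mkl2-/- and 7.82 and 7.82 in wild type. Its groups overlapped and its interval was -0.08 to 0.02 (limma adjusted p = 0.404). Repeated identical values limit this interval as they do for Gdf3. The SE was 0.018, and 0.029 with genes without spread within groups left out.

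All 3 inhibitor genes fell, and these were the largest differences among the 10 genes. Over all genes 6.28% were called lower, and over genes above the background level 8.79%. Among chromosome 1 genes above that level, where both Lefty genes lie, 30.4% were lower. Lefty2 (feature 10352302, chromosome 1) read 9.21, 8.98 and 8.94 in Mkl2-/- and 10.39 on both wild-type arrays. The lowest wild-type array stood more than 1 log2 unit above the highest Mkl2-/- array. Lefty2 was 2.54-fold lower (-1.35 ± 0.10, SE; 95% interval -1.62 to -1.08; limma adjusted p = 0.0108), which placed it at rank 42 of 19938 genes counted from the most negative difference. Lefty1 (feature 10352314, chromosome 1) read 11.32, 11.16 and 11.18 in Mkl2-/- and 12.21 and 12.16 in wild type. It was 1.95-fold lower (-0.97 ± 0.06, SE; 95% interval -1.13 to -0.80; limma adjusted p = 0.0089), and Mkl2-/- replicate 1 was the highest Mkl2-/- array for both Lefty genes. The Lefty genes are close paralogs, and whether their probes cross-hybridise was not tested.

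Fst, which encodes the activin-binding protein follistatin (feature 10412260, chromosome 13), read 9.71, 9.83 and 9.78 in Mkl2-/- and 10.34 and 10.45 in wild type. The closest arrays of both groups lay farther apart than any arrays within a group. Fst was 1.54-fold lower (-0.62 ± 0.05, SE; 95% interval -0.77 to -0.47; limma adjusted p = 0.0141). Fibroblasts are known to express both Fst and Inhba, so feeder markers are given here. Of 20 fibroblast markers, Has2 (-0.76), Pdgfrb (-0.28) and Mmp2 (-0.26) fell, Twist1 (0.31) rose and 16 did not pass, among them Col1a1 (-0.29, limma adjusted p = 0.0901). Their summed linear intensity was 5586 to 5823 in Mkl2-/- and 6357 to 6445 in wild type, without overlap, and the means of Lum, Postn, Dpt and Fap lay below the background level. The part of carried-over fibroblasts in the results for Fst and Inhba was not tested.

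The receptors and the nuclear partner did not pass. Acvr1b, the type I receptor ALK4 (feature 10427015, chromosome 15), read 8.98, 8.92 and 8.85 in Mkl2-/- and 9.05 and 9.16 in wild type. The arrays did not overlap and the unadjusted interval was -0.35 to -0.03, but the range of values within each group was wider than the gap between the groups (limma adjusted p = 0.156). Acvr2b, a type II receptor for activin and Nodal (feature 10590169, chromosome 9), read 9.49, 9.50 and 9.46 in Mkl2-/- and 9.53 and 9.50 in wild type, with an interval of -0.09 to 0.02 (limma adjusted p = 0.393). Foxh1, the SMAD partner (feature 10430066, chromosome 15), read 9.96, 10.05 and 9.86 in Mkl2-/- and 10.03 and 10.04 in wild type. Its highest value was on a Mkl2-/- array, and the interval was -0.26 to 0.10 (limma adjusted p = 0.458).

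**Figure D1:**
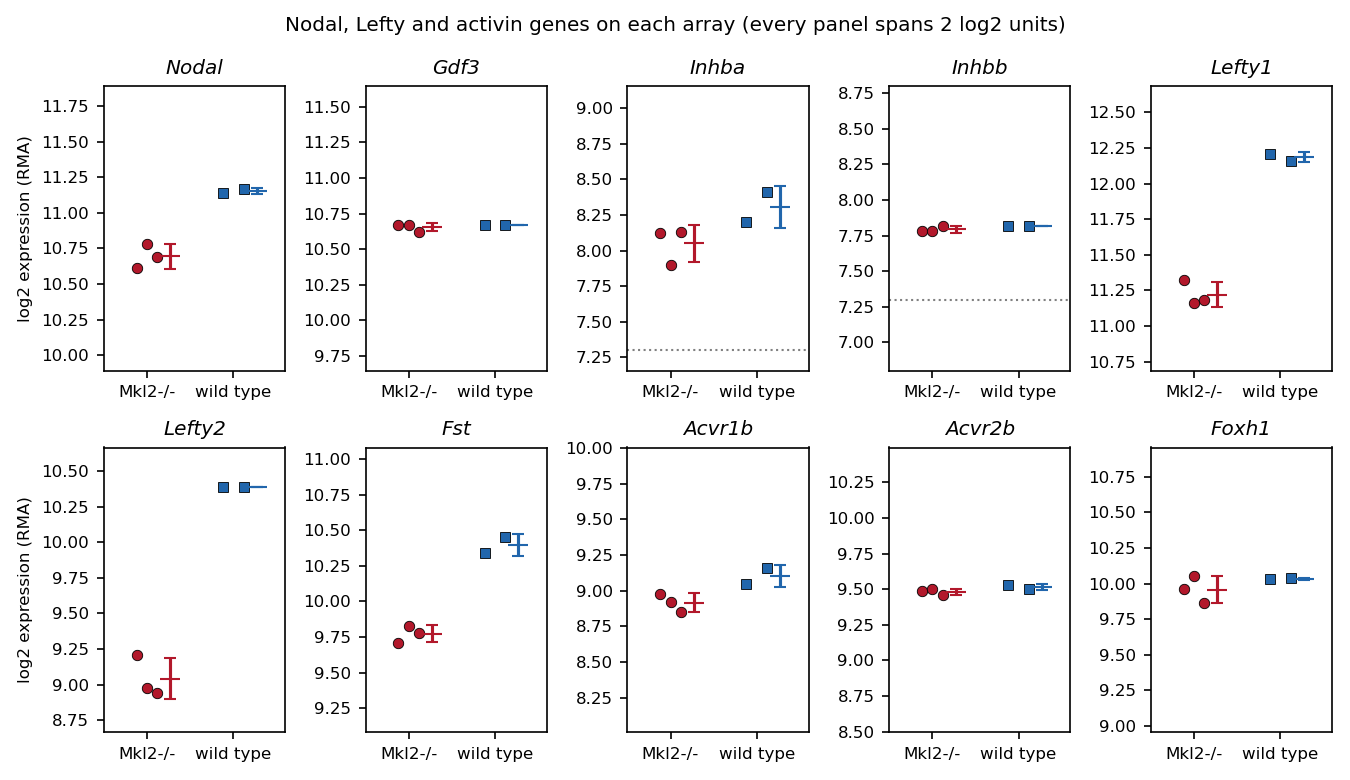
Log2 expression (vertical axis, RMA) of the 10 genes on each array, with 3 Mkl2-/- arrays as circles, 2 wild-type arrays as squares, and the mean and SD beside them. Every panel spans 2 log2 units around its own centre, so levels cannot be compared by height between panels. The dotted line in the Inhba and Inhbb panels marks the background level of 7.30. Nodal, Lefty1, Lefty2 and Fst show separated groups, Lefty2 with Mkl2-/- values of 8.94 to 9.21 against 10.39 on both wild-type arrays, while Gdf3, Inhbb, Acvr2b and Foxh1 overlap.

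Of the 10 genes, 4 were lower and 0 higher at the threshold in limma, and 5 were lower and 0 higher at an unadjusted p under 0.05. Over all genes, 9.27% were called, 6.28% as lower and 2.99% as higher. Over genes above the background level, as all 10 were, 12.9% were called, 8.79% as lower and 4.15% as higher. Arrays of both groups did not overlap in 6 of the 10, all with Mkl2-/- lower, against 16.7% of all genes with Mkl2-/- lower and 16.9% with Mkl2-/- higher. The median difference of the 10 was -0.22, against 0.02 over all genes. All 10 differences had a negative sign (after quantile normalization those of Gdf3, 0.0142, and Acvr2b, 0.0123, were positive), and those of the 6 uncalled genes ran from -0.26 to -0.02. With Mkl2-/- replicate 1 left out 2 members passed (Lefty1 and Lefty2), and with Mkl2-/- replicate 2, Mkl2-/- replicate 3, wild-type replicate 1 or wild-type replicate 2 left out 0 passed in limma (4 or 5 had an unadjusted p under 0.05, all lower). Nodal, Lefty1, Lefty2 and Fst stayed lower in each of these fits. Their adjusted p then reached at most 0.144 for Nodal, 0.0742 for Lefty1, 0.0829 for Lefty2 and 0.0829 for Fst.

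**Figure D2:**
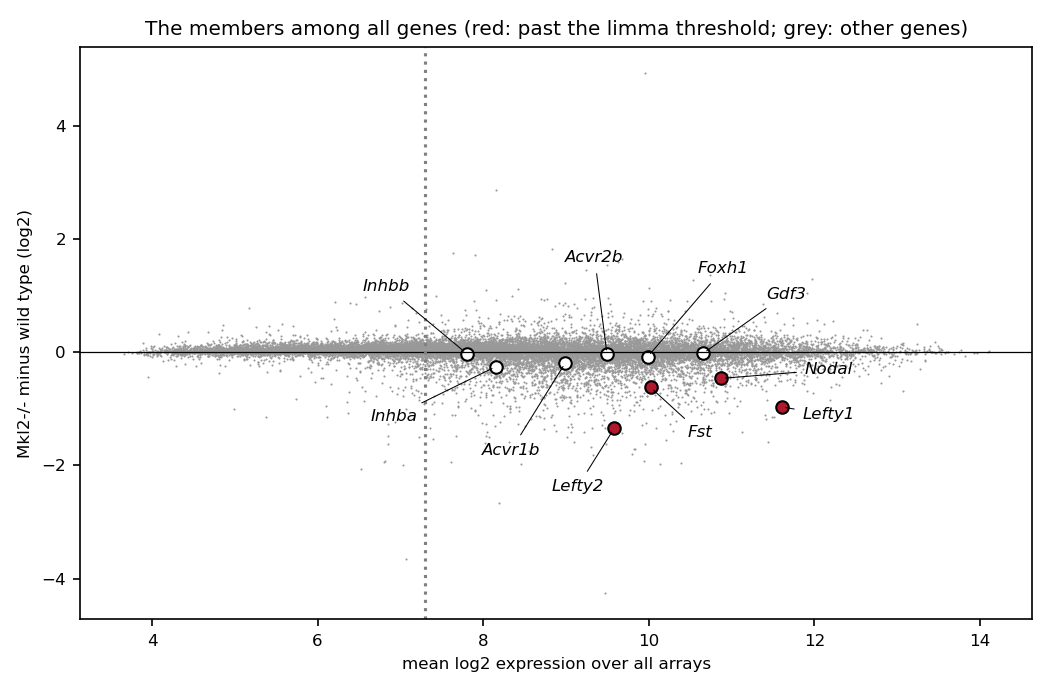
Mean log2 expression over all arrays (horizontal axis) and the log2 difference of Mkl2-/- minus wild type (vertical axis) for all 19938 genes in grey, with the 10 members as circles, red where past the limma threshold; the dotted line is the background level. Lefty2 at -1.35 and Lefty1 at -0.97 lie below most genes, and the 6 open circles lie between -0.26 and -0.02.

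The differences of Lefty2, Lefty1 and Nodal were also compared with each other within each array. The absolute gap between features of different genes has no meaning, but its shift between groups does not depend on it. Lefty2 minus Nodal was -1.40, -1.80 and -1.75 in Mkl2-/- and -0.75 and -0.78 in wild type, a shift of -0.89. The shift was -0.50 for Lefty1 minus Nodal and -0.38 for Lefty2 minus Lefty1. The groups did not overlap in any of the 3 pairs. An exact two-sided permutation test of 3 against 2 arrays gave p = 0.2 each (adjusted p = 0.2 over 3 pairs). That is the smallest value this permutation test can give with so few arrays, so it could not decide whether the falls differed in size. No other test of these shifts was run.

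Position on the chromosome moved with the Lefty result. Lefty2 and Lefty1 lie next to each other among the expressed genes of chromosome 1. That chromosome's 757 expressed genes had a median of -0.17, with 230 lower and 7 higher; over all 13553 expressed genes the median was 0.01 and 8.79% were lower. The nearest expressed neighbour of Lefty1, Tmem63a, read 9.92, 9.81 and 9.86 in Mkl2-/- and 10.89 and 10.94 in wild type (-1.05 ± 0.04, SE; limma adjusted p = 0.0062), beside -0.97 for Lefty1. On the other side, Sde2 fell by 0.38 and Mixl1, a mesendoderm homeobox gene known as a Nodal target, by 0.75. Over the 10 expressed genes on either side of Lefty1, leaving out Lefty2, the median was -0.33, with 9 of 19 lower and none called higher in limma. The difference of Lefty2 (-1.35) lay below the lowest of these neighbours (-1.05), and that of Lefty1 (-0.97) did not. The part of this regional shift in the Lefty result was not tested.

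**Figure D3:**
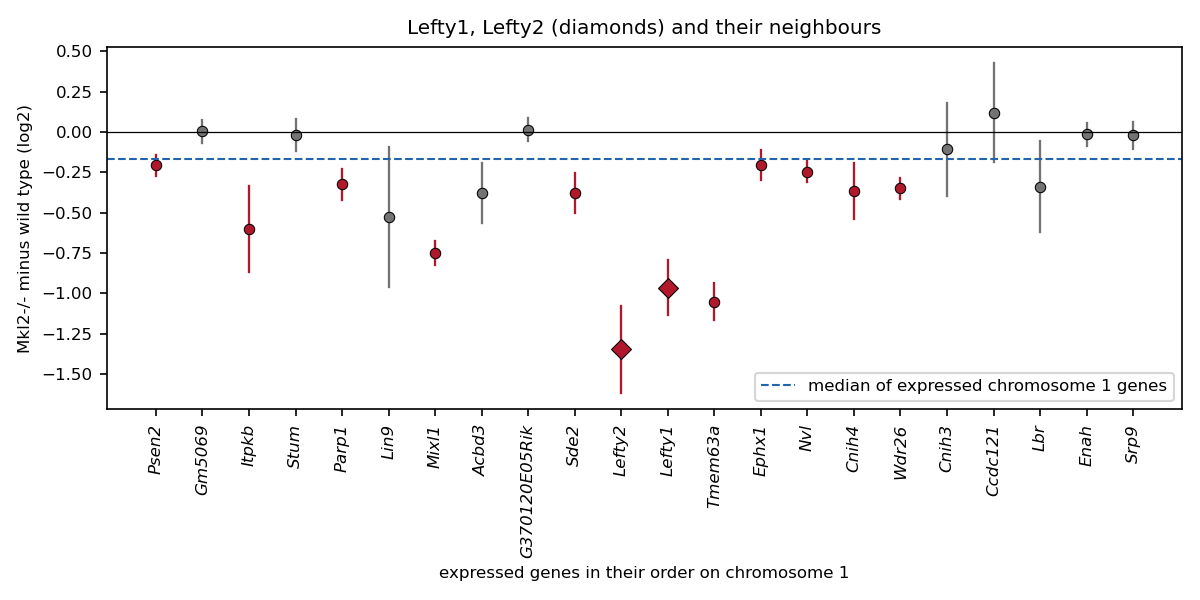
Difference of Mkl2-/- minus wild type (log2, with the 95% interval of the limma fit) for Lefty2, Lefty1 and the 10 nearest expressed genes on either side, in their order on chromosome 1; red marks genes past the threshold, diamonds the Lefty genes, and the dashed line the median of -0.17 of expressed chromosome 1 genes. Tmem63a, beside Lefty1, shows a difference of -1.05, and no gene in the window was called higher.

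By the median difference, the other members showed no such shift around them, with the exception of Inhbb. Over all expressed genes 8.79% were lower and 4.15% higher. The 20 expressed genes nearest to Nodal on chromosome 10 had a median difference of 0.01 (4 lower, 0 higher), and those nearest to Fst on chromosome 13 had -0.05 (4 lower, 0 higher). Around Inhbb, which is also on chromosome 1, the median was -0.26 and 8 of 20 genes were lower, while Inhbb itself differed by -0.03. For Gdf3, Foxh1, Inhba, Acvr1b and Acvr2b the medians of the neighbours lay between -0.01 and 0.08. Of 20 neighbours each, those lower and higher were 4 and 0 for Gdf3, 0 and 2 for Foxh1 and 2 and 2 for Inhba. They were 2 and 0 for Acvr1b and 1 and 1 for Acvr2b.

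Further genes of the pathway fell in 8 of 41 measured cases and rose in 0, of 44 listed (limma, 6.28% lower and 2.99% higher over all genes; at an unadjusted p under 0.05, 10 were lower and 3 higher). Their median difference was -0.04. Gdf1 shares its feature with another gene, and the remaining listed genes were not analysed here. Among ligands and the proteases that mature them, Furin, a proprotein convertase that cleaves the Nodal precursor, fell slightly, reading 9.86, 9.92 and 9.83 in Mkl2-/- and 10.17 and 10.08 in wild type (-0.26 ± 0.04, SE; limma adjusted p = 0.049). This call was lost when all features of the array were tested (limma adjusted p = 0.0694), with the replicate block (0.313) and with any single array left out (0.103 to 0.179). The other 7 calls were each lost with the replicate block (limma adjusted p = 0.161 to 0.194). They were also lost without wild-type replicate 2, where a lone wild-type array was left. With a single Mkl2-/- array left out, Mixl1 and Sp5 passed each time. Tgfbr3, Fstl1, Smad3, Fgf8 and Nanog each failed to pass in some of these fits. The related convertase gene Pcsk6 read 9.79, 9.83 and 9.65 in Mkl2-/- and 9.39 and 9.44 in wild type and did not pass (0.34 ± 0.06, SE; limma adjusted p = 0.0618), though it passed as higher under 6 alternatives. Inha had the value 8.15 on all 5 arrays.

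Among receptors, the betaglycan gene Tgfbr3, a co-receptor that binds TGF-beta and inhibin, fell. It read 7.99, 7.87 and 7.98 in Mkl2-/- and 8.41 and 8.39 in wild type (-0.45 ± 0.05, SE; limma adjusted p = 0.0177). Tdgf1, the Nodal co-receptor Cripto, read 12.73, 12.64 and 12.68 in Mkl2-/- and 12.71 and 12.79 in wild type. Its groups overlapped, with an interval of -0.18 to 0.05 (limma adjusted p = 0.393). The type II receptor gene Acvr2a (-0.06, interval -0.16 to 0.04) and the type I receptor gene Acvr1c (0.06, below the background level) did not pass, and Acvr1 and Cfc1 had 1 value each on all 5 arrays.

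Of the extracellular antagonists and inhibitory receptors, Fstl1, which encodes a secreted follistatin-like glycoprotein, was the only 1 of 7 past the threshold. It read 10.08, 10.18 and 9.99 in Mkl2-/- and 10.95 and 10.97 in wild type (-0.88 ± 0.06, SE; limma adjusted p = 0.0108), a 1.84-fold fall. Fibroblasts also express Fstl1, and the marker values given with Fst apply to it. Cer1 and Dand5, secreted Nodal antagonists, lay below the background level in both groups.

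Of 11 SMADs, partners and corepressors, Smad3 fell and no other member passed. Smad3 read 9.23, 9.32 and 9.23 in Mkl2-/- and 9.74 and 9.70 in wild type, without overlap (-0.46 ± 0.04, SE; limma adjusted p = 0.0131). Smad2 differed by -0.07 (interval -0.24 to 0.10) and Smad4, the common partner, by -0.04 (interval -0.11 to 0.03). Smad7, the inhibitory SMAD, read 10.35, 10.66 and 10.57 in Mkl2-/- and 10.84 and 10.57 in wild type, with overlapping groups and an interval as wide as -0.56 to 0.21. Skil, which encodes the corepressor SnoN, differed by 0.16 and passed only after quantile normalization, as higher (0.19, limma adjusted p = 0.0374).

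Among 10 measured genes known as targets of the pathway, 4 fell. Of all genes 6.28% were called lower, and of those above the background level 8.79%. Sp5, a transcription factor gene also known as a Wnt target, read 8.30, 8.29 and 8.44 in Mkl2-/- and 9.62 and 9.62 in wild type (-1.28 ± 0.06, SE; limma adjusted p = 0.0065). Nanog, the pluripotency homeobox gene, read 11.15, 11.00 and 10.96 in Mkl2-/- and 12.18 and 12.17 in wild type (-1.14 ± 0.07, SE; limma adjusted p = 0.0082). Fgf8, a signalling ligand of the primitive streak, differed by -1.12 ± 0.09 (SE; limma adjusted p = 0.0128), and Mixl1 by -0.75 ± 0.03 (SE; limma adjusted p = 0.0059). Mixl1 is also among the chromosome 1 neighbours of Lefty2 described with the regional shift. Pmepa1, a feedback inhibitor induced by TGF-beta and activin, read 10.36, 10.38 and 10.31 in Mkl2-/- and 10.59 and 10.44 in wild type. Its groups did not overlap, but it did not pass (-0.17 ± 0.06, SE; limma adjusted p = 0.194). Eomes, Gsc, Foxa2 and Lhx1, genes of the mesendoderm, had differences between -0.07 and 0.00 and did not pass. Of these, Lhx1 lay below the background level on every array, and Foxa2 had the value 8.27 on every array. The DNA methyltransferase gene Dnmt3b (0.01) did not pass either.

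**Figure D4:**
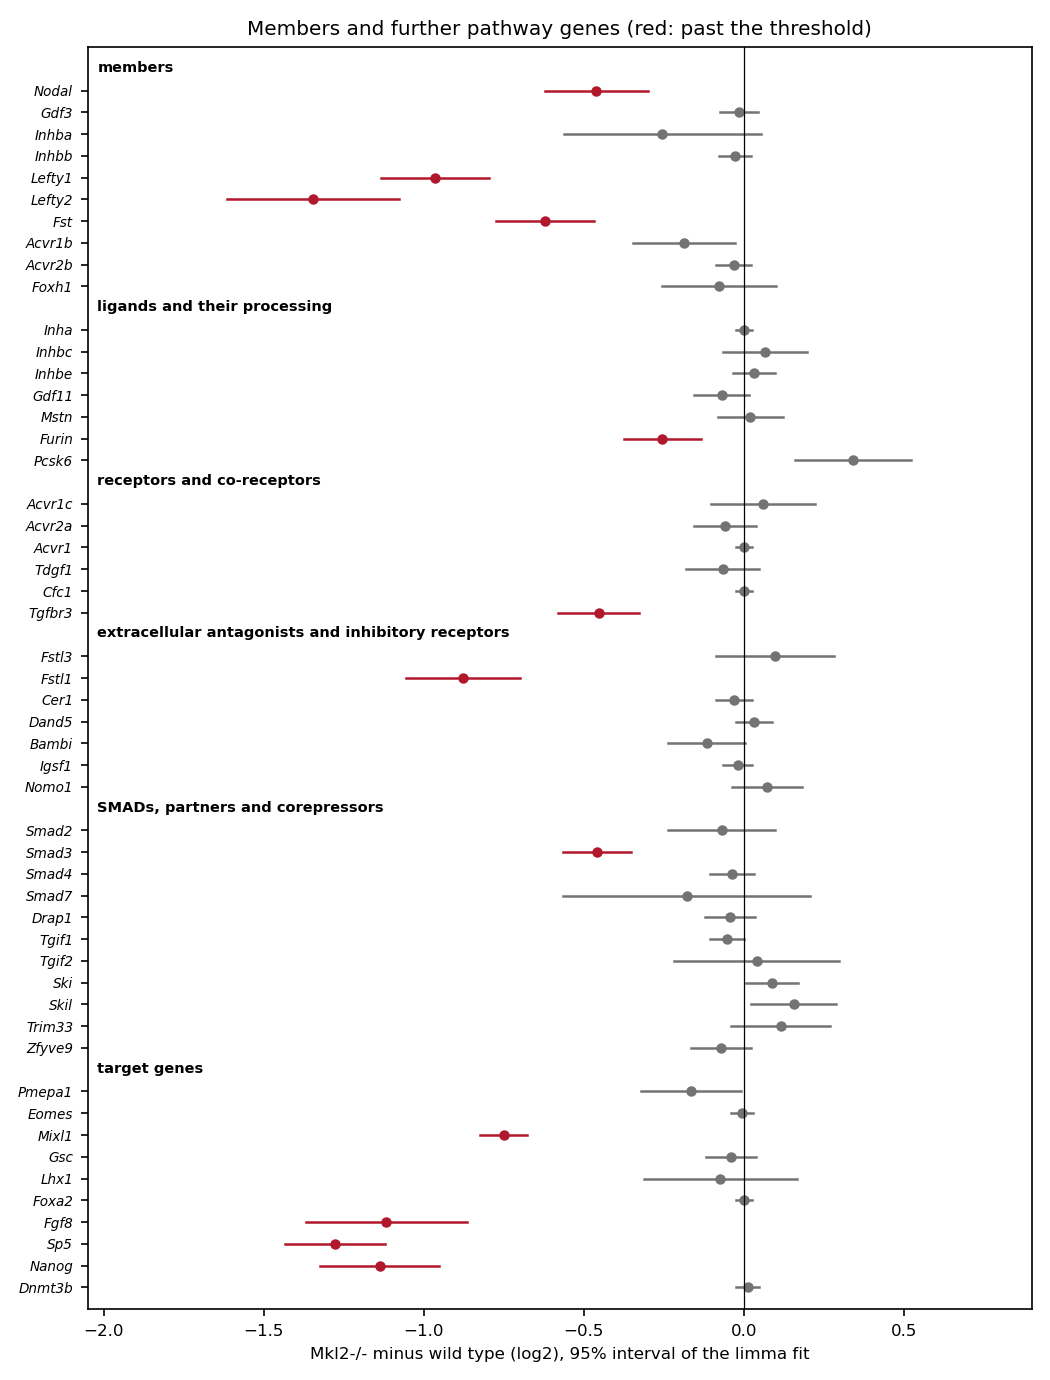
Difference of Mkl2-/- minus wild type (log2, horizontal axis) with the 95% interval of the limma fit for the 10 members and 41 further pathway genes, grouped by role; red marks genes past the threshold. Each list holds both red and grey genes, and the falls run from -0.26 for Furin to -1.35 for Lefty2.

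Markers of another lineage moved with these falls. Of 10 primitive endoderm markers 6 rose, including Lama1 (1.45) and Gata6 (0.94), and 0 fell. Over all genes, 2.99% were called higher and 6.28% lower. The summed linear intensity of these markers was 6171 to 6908 in Mkl2-/- and 4402 to 4440 in wild type. This sum includes Cubn. Of 10 stem cell markers, Fgf4 (0.67), Dppa5a (0.49) and Utf1 (0.39) rose and Tfcp2l1 (-0.67, on chromosome 1) fell, with a summed intensity of 39934 to 40574 in Mkl2-/- and 34990 to 36144 in wild type. Cubn, also among those that rose, lay above the background level only on the 3 Mkl2-/- arrays, so no size is given for its difference. The other markers of both lists had a mean above that level in both groups. Their part in the falls of Nodal, Lefty1, Lefty2 and Fst was not tested.

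**Figure D5:**
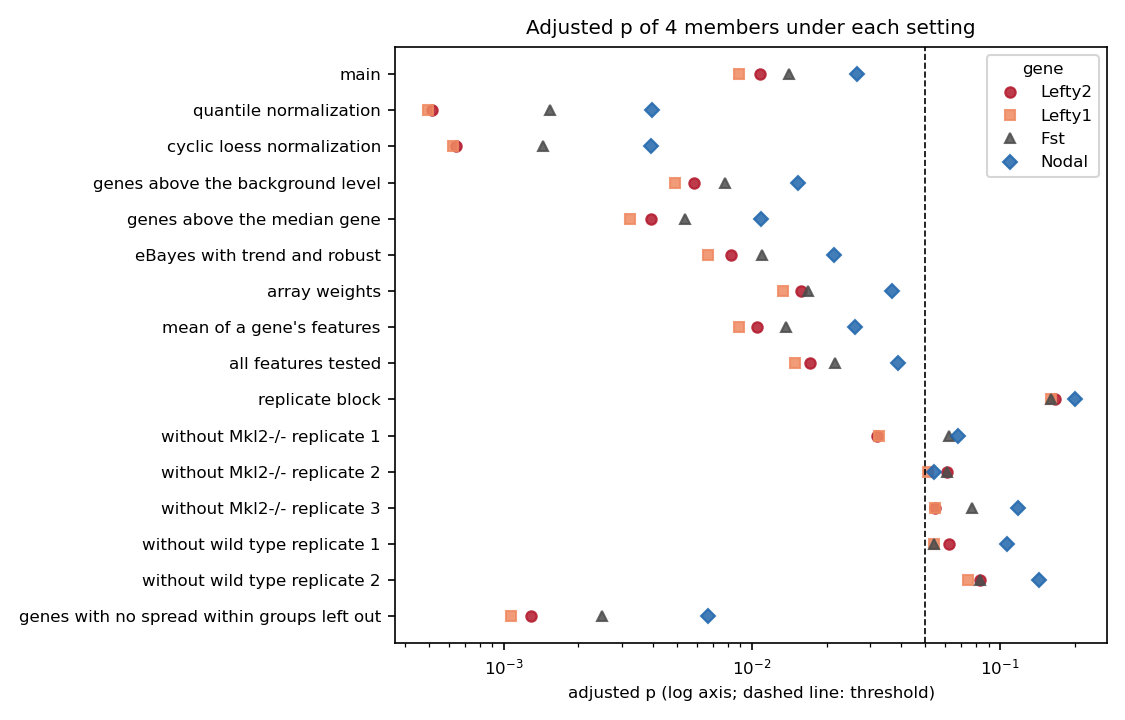
Adjusted p of the limma fit (horizontal log axis) for Lefty2, Lefty1, Fst and Nodal under the main processing and 15 alternatives; the dashed line is the threshold of 0.05. All 4 genes lie left of the line under the main processing and in the alternatives that keep all arrays without a replicate block, and right of it with the replicate block and in most fits that leave out an array.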

How the data were processed

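RNA of 5 cultures was hybridised to Affymetrix whole-transcript arrays. The submitters' processing notes name RMA and Affymetrix Expression Console 1.1 as the authors' tools for the deposited log2 values. This method corrects background, normalizes by quantiles and summarizes probes, which compresses differences of dim genes. They are rounded to 2 decimals. Of 35556 features, 21789 had 1 gene symbol in the platform annotation, and the brightest by mean over all arrays stood for each of 19938 genes. Chromosomes and gene order came from RefSeq (GRCm38.p6).

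The comparison used limma 3.58.1 (lmFit, then eBayes) under R 4.3.3 (3 residual and 0.885 prior degrees of freedom), with Benjamini-Hochberg adjustment over all genes. limma offset the zero variance of 776 genes without spread within groups. As background level, 95% of 1027 olfactory receptor genes had a mean at or below it. The number of arrays limits the precision.

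All members, the targeted gene, the further pathway genes past the threshold and a few listed ones were named whether they passed or not; neighbours and other uncalled genes were named after their values were seen. Members and lists were chosen with earlier results of these data known. Alternatives were quantile and cyclic loess normalization, array weights, a trended robust eBayes, 2 filters against dim genes, all features tested, averaging the features of a gene, a replicate block and each array left out. Leaving out genes without spread, the neighbours and the within-array pairs were added after seeing the data. Replicate numbers were not taken to pair the arrays. The deviations of same-numbered arrays correlated at -0.26 and 0.18 across expressed genes. With 2 wild-type arrays these deviations mirror each other, so the correlations cannot exclude pairing or a shared batch. Mkl2-/- replicates 1 and 2 and wild-type replicate 1 shared 26.4% to 27.5% identical values pairwise, against 15.5% to 19.4% in all other pairs. The cause was not tested. Figures were drawn with matplotlib 3.10.9.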

Additional observations from a re-analysis of the deposited data

How the results depend on the processing

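The 4 member calls (0 higher, 4 lower) were made in all 9 alternatives that kept the 5 arrays without a replicate block, and the signs of Nodal, Lefty1, Lefty2 and Fst held in all 15. The fit with the replicate block had 1 residual degree of freedom and 0 calls over all genes, hence 0 members and 0 pathway genes. In that fit 3827 genes had an unadjusted p under 0.05 (smallest limma adjusted p = 0.161). The main fit did not take the replicate numbers to pair the arrays. Beyond the correlations of deviations given above, pairing was not tested. With single arrays left out, 0 to 473 genes were called higher, and 0 to 490 genes, 0 to 2 members and 0 to 6 pathway genes lower. Where a lone wild-type array was left, it was assumed to vary like the Mkl2-/- arrays. Without wild-type replicate 2 there were 0 calls at all (4411 genes with an unadjusted p under 0.05; smallest limma adjusted p = 0.0583). Against 596 higher and 1252 lower genes as reported, quantile normalization gave 1254 higher and 1652 lower, cyclic loess 970 and 1979, and leaving out genes without spread, added after seeing the data, 916 and 1727. Higher pathway genes numbered 2 (Pcsk6 and Skil) after quantile normalization and 1 (Pcsk6) with cyclic loess, with either filter on dim genes, with array weights and without genes of no spread, against 0 as reported. After quantile normalization the uncalled differences of Gdf3 (0.0142) and Acvr2b (0.0123) turned positive. Inhba and Inhbb lay below the median gene and had no value under that filter. The causes were not tested. Dim signal limits Inhba, Inhbb and genes below the background level, since RMA compresses their differences.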

Other observations

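The genes whose values, centred on their mean over the 5 arrays, lay closest to those of Nodal, Lefty1 and Lefty2 were taken from 12944 expressed genes by the smallest root mean square difference. With 2 groups of arrays, such likeness mostly reflects a difference of like size between the genotypes. For Nodal they were Jade2 (0.010), Lipg (0.017) and Kif21b (0.019), the last on chromosome 1. For Lefty1 they were Chst15 (0.019), which encodes a chondroitin sulfotransferase, Igfbp4 (0.041), an IGF-binding protein, and Ptch1 (0.047), the receptor of Hedgehog ligands. Ptch1 read 10.33, 10.29 and 10.19 in Mkl2-/- and 11.29 and 11.25 in wild type (-1.0 ± 0.05, SE; limma adjusted p = 0.0074). For Lefty2 they were Gli2 (0.036), a transcription factor of the Hedgehog pathway, Ephx3 (0.050) and Gpc3 (0.086), the X-linked glypican-3. Gli2, on chromosome 1, read 8.74, 8.46 and 8.45 in Mkl2-/- and 9.91 and 9.82 in wild type (-1.31 ± 0.11, SE; limma adjusted p = 0.0138).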
